A study of Mus musculus with 6 samples.

Results

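The genes described here encode the constant parts of the mouse antibody chains and the proteins that carry IgA across the gut epithelium. The members were chosen by symbol and function and not by a threshold on their values, but with earlier results of these data known. They are the heavy chain genes Igha, Ighm, Ighd, Ighg1, Ighg2b and Ighg3, the light chain genes Igkc and Iglc1, the joining chain gene Jchain and the transport receptor gene Pigr. Of these 10 genes, 8 had a row among the 38561 genes of the tables, and the same 8 were among the 16425 genes tested. Ighd and Iglc1 had no row by identifier or by position and were not analysed here. Pigr fell 3.51-fold in the pools labelled Rbm47-IKO and passed the test across all genes, while none of the other members passed it. IgA heavy chain and J chain levels overlapped between genotypes, as did their ratio to each other.

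Plasma cells beneath the gut epithelium secrete IgA as dimers in which the J chain links 2 antibody units, and a smaller amount of pentameric IgM that also holds a J chain. The polymeric immunoglobulin receptor, the product of Pigr, binds these J chain-containing polymers at the base of the enterocyte, carries them across the cell and is cleaved at the lumen, where its outer part stays on the antibody as secretory component. Igha and Jchain are therefore read from plasma cells and Pigr from epithelium, and a scraping of mucosa holds RNA of both. IgG isotypes are made by cells that switched to another constant gene, and naive B cells carry IgM and IgD on their surface.

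RNA-Seq compared small intestinal mucosa of C57BL/6J mice of genotype Rbm47_IKO and of genotype wt, with 3 pools per genotype, each of RNA from 3 mice of 8 to 12 weeks and, by the labels, of both sexes. In the Rbm47-IKO line a villin promoter drives Cre from development onwards, which is meant to delete Rbm47, the gene of an RNA-binding protein, in intestinal epithelium and not in plasma cells. The labels call the controls wt, whereas the methods of the study describe floxed mice without Cre as controls, so that carriage of the floxed allele by the controls is not settled by the labels. Ages and mice per pool are those of the labels, and the methods of the study give wider ranges for both. The labels name no treatment for either group. Since each library is a pool, p-values measure the spread between pools and not between mice.

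Sequences are shown for the features the results turn on, namely the region before the start of Pigr and the ends of the secreted IgA and IgM heavy chains, where the J chain is attached. The Pigr sequence comes from RefSeq (GRCm38.p6, chr1:130826434-130826683, plus strand) and covers the 250 bases upstream of the start. Capitals mark an E-box, CACGTG, a core read by basic helix-loop-helix factors such as USF1.
Pigr upstream region: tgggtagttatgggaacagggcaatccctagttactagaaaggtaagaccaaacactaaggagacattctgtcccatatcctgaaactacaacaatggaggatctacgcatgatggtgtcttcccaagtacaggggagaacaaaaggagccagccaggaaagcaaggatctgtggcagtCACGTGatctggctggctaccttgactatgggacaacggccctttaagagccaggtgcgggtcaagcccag
The E-box begins 71 bases before the start. CACGTG, which reads the same on both strands, was present in 7.17% of 32544 mouse promoters of 300 bases (250 before to 50 after the start) and in 6.03% of their upstream 250 bases. An interferon regulatory factor core, AANNGAAA, was searched on both strands and had 1 match in the 300 bases of Pigr, on the minus strand, which reads TTTCAGTT on the plus strand and begins at base 8 after the start. That core was present in 23.9% of the promoters. These matches describe letters in the sequence only.

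The last 18 codons before the stop codon of the secreted heavy chains form the secretory tailpiece, and capitals mark the codon of the cysteine next to the end that bonds to the J chain. Both are read from the minus strand of GRCm38 with the GENCODE M21 transcripts, for Igha at chr12:113258771-113258824 and for Ighm at chr12:113420870-113420923.
Igha secreted form: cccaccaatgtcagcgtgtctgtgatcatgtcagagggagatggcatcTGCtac
Ighm secreted form: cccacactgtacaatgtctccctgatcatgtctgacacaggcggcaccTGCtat
Of these 54 bases, 35 were identical between the chains. The rows of Igha, Ighg1, Ighg2b and Ighg3 hold the coding exons of the secreted form up to the stop codon. They hold no exon specific to the membrane form, whereas the Ighm row also touches 5 of the 6 exons of its membrane transcript. The counts below therefore do not separate secreted from membrane transcripts.

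Total counts ranged from 31560320 to 38951830 per pool. Of the 16425 genes tested with edgeR, 443 passed a Benjamini-Hochberg adjusted p of 0.05, 238 higher (1.45% of the genes tested) and 205 lower (1.25%) in the pools labelled Rbm47-IKO. Rbm47 itself was at 602.7, 624.6 and 619.8 CPM (read counts scaled to the TMM-normalized size of each library) in those pools and at 459.8, 449.9 and 472.1 CPM in wt pools, so the targeted gene was higher where the label says it was deleted (log2 fold change 0.42 ± 0.10, SE, edgeR adjusted p = 0.0751). That difference passed with DESeq2 (adjusted p = 0.00954) and in edgeR with library size as the only scaling (adjusted p = 0.0473). It passed in no other fit, although the log2 estimate stayed between 0.39 and 0.44. With 1 pool left out the edgeR adjusted p lay between 0.117 and 0.356, and with the pool number as a replicate block it was 0.207. The tables count the whole gene and do not separate the deleted part, and genotype is used below only as the label. The pools labelled Rbm47-IKO differed among themselves in smooth muscle RNA, as did the wt pools: summed CPM of 6 muscle genes was 360.9, 585.7 and 3302 against 90.73, 2803 and 313.1. The sexes were also unequally distributed between genotypes. Xist, which is transcribed in female cells, was at 75.56, 258.1 and 40.34 CPM in the pools labelled Rbm47-IKO and at 1.09, 150 and 0.686 CPM in wt pools, so that wt pools 1 and 3 held hardly any female RNA, contrary to the labels. Together, 4 Y-linked genes reached 138.6, 53.04 and 143.7 CPM in the labelled Rbm47-IKO pools and 215.4, 87.87 and 220.3 CPM in the wt pools. Left out in turn, single pools had a large effect on the number of genes called by edgeR: 0 without Rbm47-IKO pool 2 (1729 at an unadjusted p under 0.05), 11 without wt pool 3 and 32 without Rbm47-IKO pool 1.

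Among the 8 members, 1 (Pigr) was called lower and 0 higher by edgeR, against the 1.25% of tested genes called lower. All 8 estimates lay below 0, with a median log2 fold change of -1.07 against -0.01 over all genes tested. An unadjusted edgeR p under 0.05 was found for 4 members and for 2756 of the 16425 genes tested. For 5 members, Pigr, Igkc, Ighm, Ighg2b and Ighg3, every pool labelled Rbm47-IKO lay below every wt pool, a pattern seen in 11.6% of all tested genes. The antibody genes are not independent of each other, since the same cells transcribe them. The members were also chosen with earlier results of these data known. In bulk tissue, fewer cells of a type and less RNA per cell cannot be told apart.

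**Figure D1:**
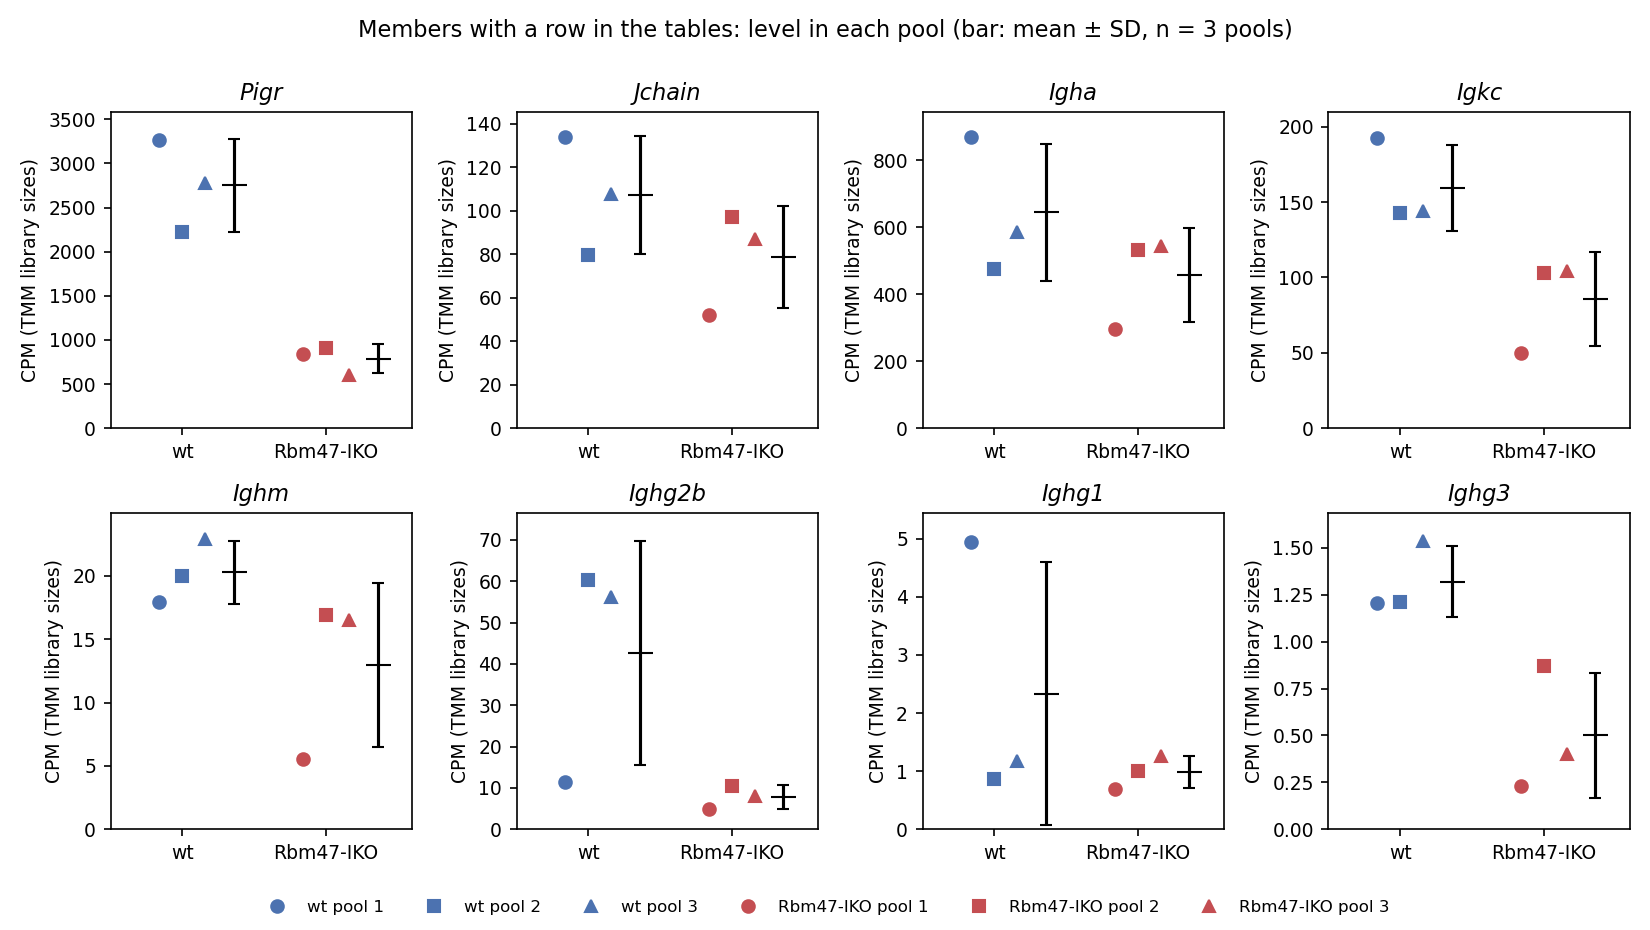
Level of each member in each pool in CPM on TMM library sizes (y axis from 0 in each panel), with wt pools in blue, pools labelled Rbm47-IKO in red and the mean ± SD of 3 pools in black. Pigr separates most clearly, with 598.9 to 910.1 CPM against 2218 to 3266 CPM, while Igha and Jchain overlap and the wt pools of Ighg2b split into 1 low and 2 high pools.

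Pigr (ENSMUSG00000026417, chromosome 1, 130826684 to 130852249, plus strand, GRCm38) was among the most abundant transcripts of the mucosa, 62nd of the tested genes by mean CPM. It was counted 29290, 34469 and 19556 times in the pools labelled Rbm47-IKO and 111045, 84185 and 101117 times in wt pools. In CPM these are 846, 910.1 and 598.9 against 3266, 2218 and 2775. The highest labelled Rbm47-IKO pool had less than the lowest wt pool, and wt pool 1 was the highest of all. Means were 785 ± 164.3 CPM against 2753 ± 524.1 CPM (SD, n = 3 each), a log2 fold change of -1.81 ± 0.21 (SE, edgeR adjusted p = 0.0102), a 3.51-fold decrease. By unadjusted p Pigr was 61st of the genes tested and by size of change 15th of those called lower. As a share of all counts, Pigr took 0.0620% (95% Wilson interval 0.0611 to 0.0628) in Rbm47-IKO pool 3, the lowest, and 0.336% (0.334 to 0.339) in wt pool 1, the highest. Intervals cover counting error only, and they are far narrower than the distance between pools of a group.

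Leaving out 1 pool kept the log2 fold change of Pigr between -1.94 and -1.65, but the call was kept in 3 of these 6 fits. It was lost without Rbm47-IKO pool 1 (-1.87, edgeR adjusted p = 0.0653), without Rbm47-IKO pool 2 (-1.93, adjusted p = 0.0741) and without wt pool 3 (-1.80, adjusted p = 0.0544), the fits in which few genes of any kind were called. The call was also lost with the pool number as a replicate block (-1.82, edgeR adjusted p = 0.0530). Adjusted for the sum of the Y-linked genes, in a fit chosen once the values were known, the value was -1.80 (edgeR adjusted p = 0.0690). Without the pool of each group that was richest in smooth muscle RNA, also added then, it was -1.79 (edgeR adjusted p = 0.00965).

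The 8 epithelial genes summed to 15357, 15802 and 12935 CPM in the pools labelled Rbm47-IKO and to 14053, 14661 and 15476 CPM in wt pools, sums that overlapped, and 0 of them passed the test, with 6 estimates above 0 and 2 below (median 0.06). Vil1 (villin, of the brush border) had an estimate of -0.17 on the log2 scale (edgeR adjusted p = 0.622), Epcam (an epithelial adhesion molecule) -0.13 (adjusted p = 0.785) and Krt20 (a keratin of mature villus cells) 0.03 (adjusted p = 0.959). Cldn7, a tight junction claudin chosen after its values were seen, was the epithelial gene whose pools did not overlap, at 1204, 1296 and 1077 CPM against 792.7, 882.9 and 823.9 CPM (0.52 ± 0.12 on the log2 scale, SE, edgeR adjusted p = 0.0740). Every pool labelled Rbm47-IKO lay above every wt pool in 11.7% of all tested genes. Counts of Pigr per count of these epithelial genes, a ratio added once the values were known, were 0.0551, 0.0576 and 0.0463 against 0.232, 0.151 and 0.179. On the log2 scale the ratio differed by -1.81 (-4.24 ± 0.17 against -2.44 ± 0.31, SD, n = 3 each, two-sided exact permutation p = 0.1, the smallest that 3 pools against 3 allow).

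Among 15 genes that regulate Pigr transcription in epithelial cells, cytokine receptors, innate sensors and transcription factors, 0 passed the test in either direction, 11 estimates were above 0 and 4 below, and the median log2 fold change was 0.12. Their summed level was 1743, 1811 and 1459 CPM against 1483, 1567 and 1676 CPM. Ifngr2, a chain of the interferon gamma receptor, was at 305.7 ± 59.08 CPM against 317.8 ± 62.33 CPM. Irf1, the interferon-responsive factor, was at 232.4 ± 43.61 CPM against 206.7 ± 19.45 CPM, and Stat6, which acts below the interleukin 4 receptor, at 192 ± 12.75 CPM against 177.2 ± 25.31 CPM (SD, n = 3 each). None of the 3 differences exceeded the spread of the pools, with edgeR adjusted p of 0.935, 0.691 and 0.755. For 3 of the 15 genes, named after their values were seen, every pool labelled Rbm47-IKO lay above every wt pool, which held for 11.7% of all tested genes. They were Myd88, an adaptor of innate sensors, at 26.46 ± 1.497 CPM against 19.12 ± 1.86 CPM, Tnfrsf1a, a receptor of tumour necrosis factor, at 170.8 ± 10.74 CPM against 131.8 ± 14.95 CPM, and Rela, a subunit of NF-kappaB, at 32.03 ± 2.25 CPM against 27.06 ± 4.03 CPM (SD, n = 3 each, edgeR adjusted p = 0.0893, 0.158 and 0.435).

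Of 6 other genes for receptors that bind antibody, 0 were called, 3 estimates lay above 0 and 3 below, and the median was -0.18. Fcgrt, which encodes the neonatal Fc receptor that carries IgG across epithelium, was at 101.7 ± 11.22 CPM against 90.52 ± 8.415 CPM (edgeR adjusted p = 0.574) and overlapped between genotypes. Fcer1g, the signalling chain of several Fc receptors, was estimated at 0.22 on the log2 scale and Fcgr3, a low-affinity IgG receptor, at -0.45 (edgeR adjusted p = 0.721 and 0.477).

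Jchain (ENSMUSG00000067149, chromosome 5, 88520512 to 88527891, minus strand) had 1807, 3680 and 2836 counts in the pools labelled Rbm47-IKO and 4555, 3023 and 3928 in wt pools. That is 52.19, 97.16 and 86.86 CPM against 134, 79.65 and 107.8 CPM, with wt pool 2 inside the range of the other genotype. Means were 78.74 ± 23.56 CPM and 107.1 ± 27.16 CPM (SD, n = 3 each), a difference that did not pass (log2 fold change -0.44 ± 0.26, SE, edgeR adjusted p = 0.468). The estimate was -0.22 without Rbm47-IKO pool 1 and -0.25 without wt pool 1.

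Igha (ENSMUSG00000095079, chromosome 12, 113258768 to 113260236, minus strand), the IgA heavy chain, was by far the most abundant heavy chain gene. It had 10227, 20153 and 17750 counts against 29590, 18038 and 21393. In CPM the values were 295.4, 532.1 and 543.6 against 870.2, 475.3 and 587. Rbm47-IKO pool 1 was the lowest and wt pool 1 the highest, and the other 4 pools lay close together irrespective of genotype. Means were 457 ± 140.1 CPM against 644.2 ± 203.6 CPM (SD, n = 3 each), with a log2 fold change of -0.50 ± 0.29 (SE, edgeR adjusted p = 0.466). Without wt pool 1 the estimate was -0.22, and without Rbm47-IKO pool 1 it was -0.26.

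Counts of Jchain per count of Igha were 0.177, 0.183 and 0.160 in the pools labelled Rbm47-IKO and 0.154, 0.168 and 0.184 in wt pools. On the log2 scale the means were -2.53 ± 0.10 and -2.57 ± 0.13 (SD, n = 3 each), a difference of 0.04 (two-sided exact permutation p = 0.8). Among the 7910 tested genes with a mean of 10 CPM or more, antibody genes left out, Jchain also had the pattern most like that of Igha over the 6 pools, with a root mean square difference of 0.096 in log2 CPM centred on each gene's mean. The next were Dock2 (0.194), a guanine nucleotide exchange factor of leukocytes, Epas1 (0.223), a hypoxia-inducible factor, Ikzf1 (0.230), the lymphoid transcription factor Ikaros, and Acox2 (0.233), a peroxisomal oxidase.

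The receptor was also set against its ligand. Counts of Pigr per count of Igha were 2.86, 1.71 and 1.10 in the pools labelled Rbm47-IKO and 3.75, 4.67 and 4.73 in wt pools, without overlap. The log2 ratio averaged 0.81 ± 0.69 against 2.12 ± 0.19 (SD, n = 3 each), a difference of -1.31 (two-sided exact permutation p = 0.1, the smallest possible). Within the labelled Rbm47-IKO pools the ratio was highest in pool 1, where Igha was lowest.

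Among the genes most like Pigr over the 6 pools by the same measure were Pipox (0.289), a peroxisomal oxidase of pipecolic acid and sarcosine, Slc30a10 (0.314), a manganese exporter, Mfsd4b3 (0.331), a predicted membrane transporter, and Pls1 (0.358), the actin bundler plastin 1 of the brush border. These 4 were lower in the pools labelled Rbm47-IKO, as the choice for likeness to Pigr implies. Their mean levels were 9.24 against 28.03 CPM for Pipox, 26.53 against 69.38 CPM for Slc30a10, 14.18 against 35.44 CPM for Mfsd4b3 and 1150 against 2625 CPM for Pls1.

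**Figure D2:**
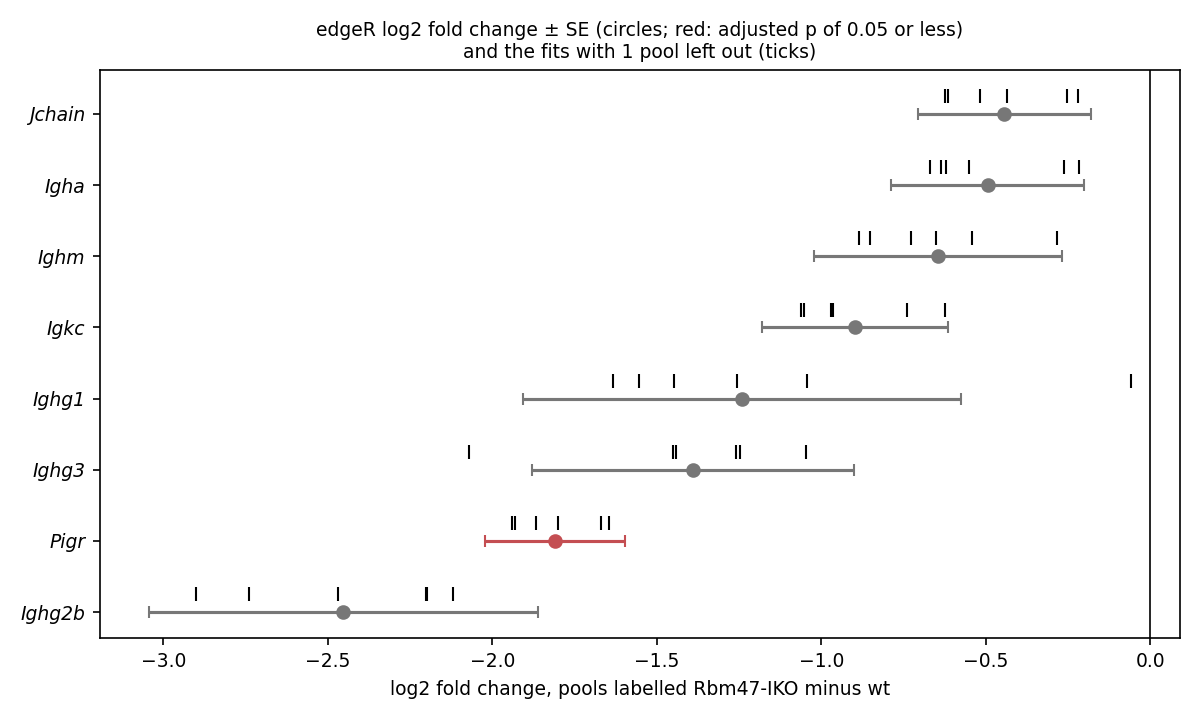
Log2 fold change of each member (x axis, pools labelled Rbm47-IKO minus wt, circles with SE from edgeR on all 6 pools, red where the adjusted p is 0.05 or less) and the 6 estimates with 1 pool left out each (ticks). All estimates lie below 0, those of Pigr within -1.94 to -1.65, and that of Ighg1 reaches -0.06 without wt pool 1.

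Ighm (ENSMUSG00000076617, chromosome 12, 113418950 to 113422730, minus strand), the IgM heavy chain, had 191, 640 and 539 counts against 610, 760 and 835. The levels were 5.52, 16.9 and 16.51 CPM against 17.94, 20.03 and 22.91 CPM. The genotypes did not overlap, but Rbm47-IKO pools 2 and 3 lay just under wt pool 1, and Rbm47-IKO pool 1 stood far below. Means were 12.97 ± 6.46 CPM and 20.29 ± 2.497 CPM (SD, n = 3 each), with a log2 fold change of -0.65 ± 0.38 (SE, edgeR adjusted p = 0.46), and -0.28 without Rbm47-IKO pool 1.

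IgG heavy chain genes were minor and uneven. Ighg2b (ENSMUSG00000076613, chromosome 12, 113306389 to 113307933, minus strand) had 166, 400 and 261 counts in the pools labelled Rbm47-IKO and 392, 2285 and 2046 in wt pools. In CPM these were 4.79, 10.56 and 7.99 against 11.53, 60.21 and 56.14. Pools did not overlap between genotypes, although wt pool 1 was close to Rbm47-IKO pool 2 and the other 2 wt pools were far higher. The means were 7.78 ± 2.89 CPM and 42.63 ± 27.01 CPM (SD, n = 3 each), with a log2 fold change of -2.45 ± 0.59 (SE, edgeR adjusted p = 0.0778), which did not pass. Without wt pool 1 it was -2.90 (edgeR adjusted p = 0.0164).

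Ighg1 (ENSMUSG00000076614, chromosome 12, 113328976 to 113330523, minus strand) had 24, 38 and 41 counts against 168, 33 and 43. Wt pool 1 alone was high, at 4.94 CPM, and the other 5 pools lay between 0.693 and 1.26 CPM. The estimate of -1.24 ± 0.67 (log2, SE, edgeR adjusted p = 0.416) became -0.06 without that pool. The wt pool with most Ighg1 was thus the wt pool with least Ighg2b.

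Ighg3 (ENSMUSG00000076615, chromosome 12, 113359665 to 113361232, minus strand) had only 8, 33 and 13 counts against 41, 46 and 56, or 0.231, 0.871 and 0.398 CPM against 1.21, 1.21 and 1.54 CPM. All wt pools were above all others (log2 fold change -1.39 ± 0.49, SE, edgeR adjusted p = 0.204). Ighg2c, an IgG heavy chain gene outside the members, had 5, 10 and 15 counts against 8, 99 and 68 (-2.45 ± 0.83, adjusted p = 0.187 by edgeR) and was likewise low in wt pool 1. Ighe, the IgE heavy chain gene, had 0, 0 and 1 counts against 2, 1 and 4 and was too low to be tested. The IgG genes share sequence, so that counting could have split reads between them.

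Igkc (ENSMUSG00000076609, chromosome 6, 70726435 to 70726757, plus strand), the kappa light chain, pairs with all of these heavy chains. It had 1719, 3902 and 3406 counts against 6550, 5413 and 5239. The levels of 49.65, 103 and 104.3 CPM lay below all wt levels of 192.6, 142.6 and 143.8 CPM. Means were 85.66 ± 31.19 CPM against 159.7 ± 28.55 CPM (SD, n = 3 each), with a log2 fold change of -0.90 ± 0.28 (SE) that did not pass (edgeR adjusted p = 0.154). Its row holds the coding part of a single exon, 323 bases long, and overlaps the gene Gm30211 on the same strand, which has no row. Iglc2, the lambda gene with a row, had 35, 108 and 82 counts against 60, 205 and 210 (log2 fold change -1.02 ± 0.53, SE, edgeR adjusted p = 0.393) and shares sequence with other lambda genes.

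Per kilobase of gene length, the order of levels differed between genotypes. In wt pools it was Pigr (683.9 ± 130.2 RPKM, that is CPM per kilobase of the row), Igha (623 ± 196.9), Igkc (494.3 ± 88.39), Jchain (59.06 ± 14.97), Ighg2b (42.2 ± 26.74), Ighm (13.66 ± 1.68), Ighg1 (2.39 ± 2.33) and Ighg3 (1.33 ± 0.19), each as SD with n = 3. The first 3 overlapped one another pool by pool, as did Jchain with Ighg2b, Ighg2b with Ighm and Ighg1 with Ighg3. In the pools labelled Rbm47-IKO it was Igha (442 ± 135.5 RPKM), Igkc (265.2 ± 96.57), Pigr (195 ± 40.82), Jchain (43.41 ± 12.99), Ighm (8.73 ± 4.35), Ighg2b (7.71 ± 2.86), Ighg1 (1.01 ± 0.29) and Ighg3 (0.504 ± 0.335). Here Igha overlapped Igkc, Igkc overlapped Pigr, Ighm overlapped Ighg2b, and Ighg1 overlapped Ighg3. The wt order had Pigr ahead of Igha in 2 of 3 pools, and the other order had it behind Igha in 3 of 3.

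Isotypes were next compared within each pool, as shares of all heavy chain constant counts, which removes differences in the amount of antibody RNA between pools. Igha made up 96.29%, 94.73% and 95.33% in the pools labelled Rbm47-IKO and 96.04%, 84.84% and 87.51% in wt pools. Wt pool 1 resembled the pools of the other genotype, and wt pools 2 and 3 had less IgA. Means were 95.45% ± 0.79 and 89.46% ± 5.85 (SD, n = 3 each), a difference of 5.99 percentage points (two-sided exact permutation p = 0.3), which was 9.27 without wt pool 1 and 3.67 without wt pool 2. Counting error was small beside this, for example 84.35% to 85.31% in wt pool 2 (95% Wilson interval).

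Ighg2b took up most of the remainder in wt pools 2 and 3. Its share was 1.56%, 1.88% and 1.402% in the pools labelled Rbm47-IKO and 1.27%, 10.75% and 8.37% in wt pools (1.62% ± 0.24 against 6.80% ± 4.93, SD, n = 3 each, two-sided exact permutation p = 0.4), and the difference ranged from -7.94 without wt pool 1 to -3.21 percentage points without wt pool 2. All IgG genes together had 1.91%, 2.26% and 1.77% against 1.98%, 11.58% and 9.05% (difference -5.56 percentage points, exact permutation p = 0.2, and -8.34 and -3.53 without the same pools). Ighm had 1.80%, 3.01% and 2.90% against 1.98%, 3.57% and 3.42% (difference -0.42, exact permutation p = 0.5, from -0.93 without wt pool 1 to -0.04 without Rbm47-IKO pool 1), and in both genotypes pool 1 had the smallest share. Ighg3 had 0.0753%, 0.155% and 0.0698% against 0.133%, 0.216% and 0.229% (exact permutation p = 0.2), and Ighg1 had 0.226%, 0.179% and 0.220% against 0.545%, 0.155% and 0.176% (exact permutation p = 1). Every one of these shares overlapped between genotypes.

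**Figure D3:**
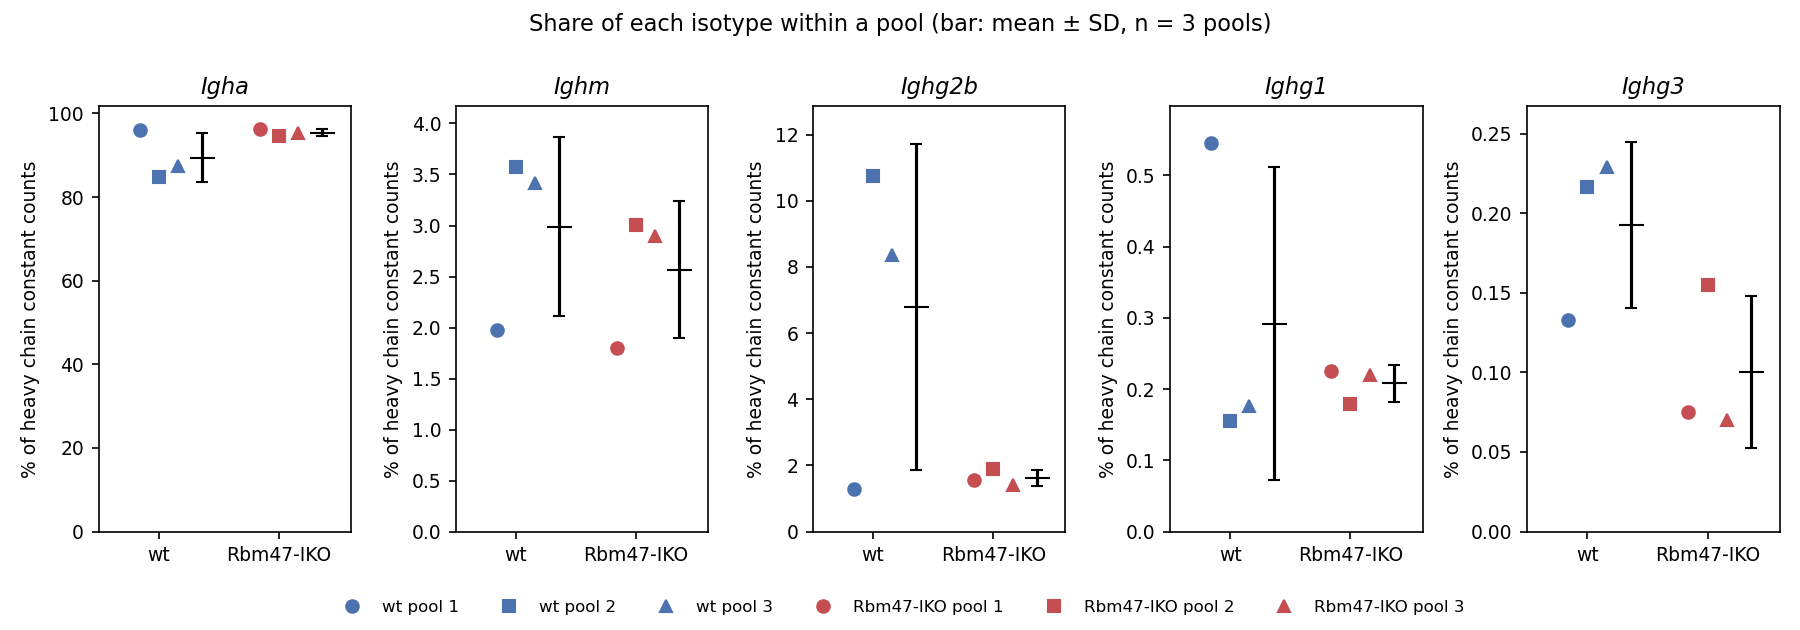
Share of 5 heavy chain genes in the heavy chain constant counts of each pool (y axis in percent from 0, a separate scale for each panel), with mean ± SD of 3 pools in black. Igha dominates in every pool, at 84.84% to 96.29%, and the Ighg2b share of 10.75% and 8.37% in wt pools 2 and 3 stands above the 1.27% to 1.88% of the other 4 pools.

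Of the lambda constant genes only Iglc2 had a row, so the lambda fraction of the light chains was not measured. Iglc2 made up 1.995%, 2.69% and 2.35% of Igkc and Iglc2 counts in the pools labelled Rbm47-IKO and 0.908%, 3.65% and 3.85% in wt pools (2.35% ± 0.35 against 2.80% ± 1.65, SD, n = 3 each, two-sided exact permutation p = 0.7). The widest 95% Wilson interval, 1.44% to 2.76%, belonged to Rbm47-IKO pool 1, so that counting error there was as large as the differences among the pools of that genotype. Wt pool 1 had the lowest Iglc2 share as it had the lowest Ighg2b share.

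Variable gene segments gave a second reading of the antibody RNA. The 108 Ighv rows summed to 51.88, 119.7 and 116.6 CPM against 159.8, 117.5 and 131.8 CPM and overlapped, as Igha did. The 102 Igkv rows summed to 31.34, 79.08 and 81.47 CPM against 129.3, 97.6 and 89.95 CPM without overlap, as for Igkc. In these sums, as for Igha and Igkc, Rbm47-IKO pool 1 was lowest and wt pool 1 highest. The 3 Iglv rows summed to 3.90, 9.43 and 16.35 CPM against 7.74, 8.88 and 10.62 CPM.

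The cell types that make antibody were read from marker lists. The 10 B cell genes had 0 calls in either direction, but all 10 estimates lay below 0 (median log2 fold change -0.835, range -1.35 to -0.53). None was at 0 in all pools. Their summed level was 10.95, 32.87 and 31.73 CPM against 45.03, 32.28 and 55.68 CPM, again lowest in Rbm47-IKO pool 1, and the sums overlapped between genotypes. Taken singly, 5 of the 10 genes (Cd79a, Cd79b, Cd22, Bank1 and Fcrla) were lower in every pool labelled Rbm47-IKO than in any wt pool, against the 11.6% of tested genes given above. Cd22, an inhibitory co-receptor, was at 4.73 ± 2.02 CPM against 8.21 ± 1.65 CPM, Cd79b, a chain of the B cell receptor complex, at 3.10 ± 1.70 CPM against 5.46 ± 1.28 CPM, and Cd37, a tetraspanin, at 4.99 ± 1.74 CPM against 7.23 ± 2.40 CPM (SD, n = 3 each). None of these passed (edgeR adjusted p = 0.312, 0.428 and 0.529). The part of B cell content in the antibody gene values was not tested.

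Lymphoid follicle genes, which mark Peyer's patches and isolated follicles that a scraping can catch, had 0 calls of 10, with 1 estimate above 0 and 9 below (median -0.70). Their sum was 24.64, 30.76 and 31.82 CPM against 28.56, 34.65 and 41.46 CPM. Bcl6, the 1 gene estimated above 0, was its largest part, at 19.21, 17.4 and 19.11 CPM against 10.09, 16.86 and 18.11 CPM. The sum therefore does not read the 9 genes estimated lower on their own. Cr2, the complement receptor of follicular cells, was at 2.76 ± 1.42 CPM against 5.27 ± 2.06 CPM, and Ccl20, the chemokine of the follicle epithelium, at 1.34 ± 0.46 CPM against 3.46 ± 3.01 CPM (SD, n = 3 each, edgeR adjusted p = 0.393 and 0.411). Bcl6, a germinal centre factor, was at 18.57 ± 1.02 CPM against 15.02 ± 4.32 CPM (edgeR adjusted p = 0.555). Cxcl13, the chemokine that draws B cells into follicles, named after its values were seen, was the follicle gene whose pools did not overlap, at 0.9499 ± 0.344 CPM against 2.74 ± 0.50 CPM (SD, n = 3 each), a log2 difference of -1.52 ± 0.35 (SE, edgeR adjusted p = 0.0686). A lack of overlap in this direction was seen in 11.6% of all tested genes. Whether follicle content bears on the IgG or IgM values was not tested.

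Of 12 plasma cell genes, 1 was called higher and 0 lower, against 1.45% and 1.25% of all genes tested. Their estimates were above 0 for 2 genes and below for 10 (median -0.18). The called gene was Sdc1, whose product syndecan 1 marks plasma cells and is also a surface proteoglycan of epithelium, at 140.7 ± 20.7 CPM against 61 ± 7.53 CPM (SD, n = 3 each), a log2 fold change of 1.21 ± 0.15 (SE, edgeR adjusted p = 0.0119). Xbp1, the factor of the secretory programme, and Txndc5, a protein disulfide isomerase, are also used by secretory epithelium and were estimated at -0.01 and 0.23 on the log2 scale (edgeR adjusted p = 0.987 and 0.372). Ell2, an elongation factor of antibody secretion, and Pou2af1, a B lineage coactivator, were chosen after their values were seen and lay lower without overlap, at 73.59 ± 5.68 CPM against 126.1 ± 27.46 CPM and at 4.63 ± 1.99 CPM against 8.32 ± 1.98 CPM (SD, n = 3 each). Neither passed (-0.78 and -0.84 on the log2 scale, edgeR adjusted p = 0.0620 and 0.299). They were 2 of the 12 genes, and the same pattern was seen in 11.6% of all tested genes. Mzb1, Prdm1, Irf4, Tnfrsf17, Derl3, Fkbp11 and Slamf7, the rest of the list, overlapped between genotypes. Their log2 estimates ran from -0.53 (Slamf7) to -0.01 (Derl3), and none passed. Over all pools Ell2 had a mean of 99.83 CPM and Mzb1 one of 1.79 CPM, and the cell source of the Ell2 counts was not tested. Sdc1, Xbp1 and Txndc5 held most of the list's sum of 679.1, 708.5 and 581.1 CPM against 612.3, 595 and 610.2 CPM, which overlapped.

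**Figure D4:**
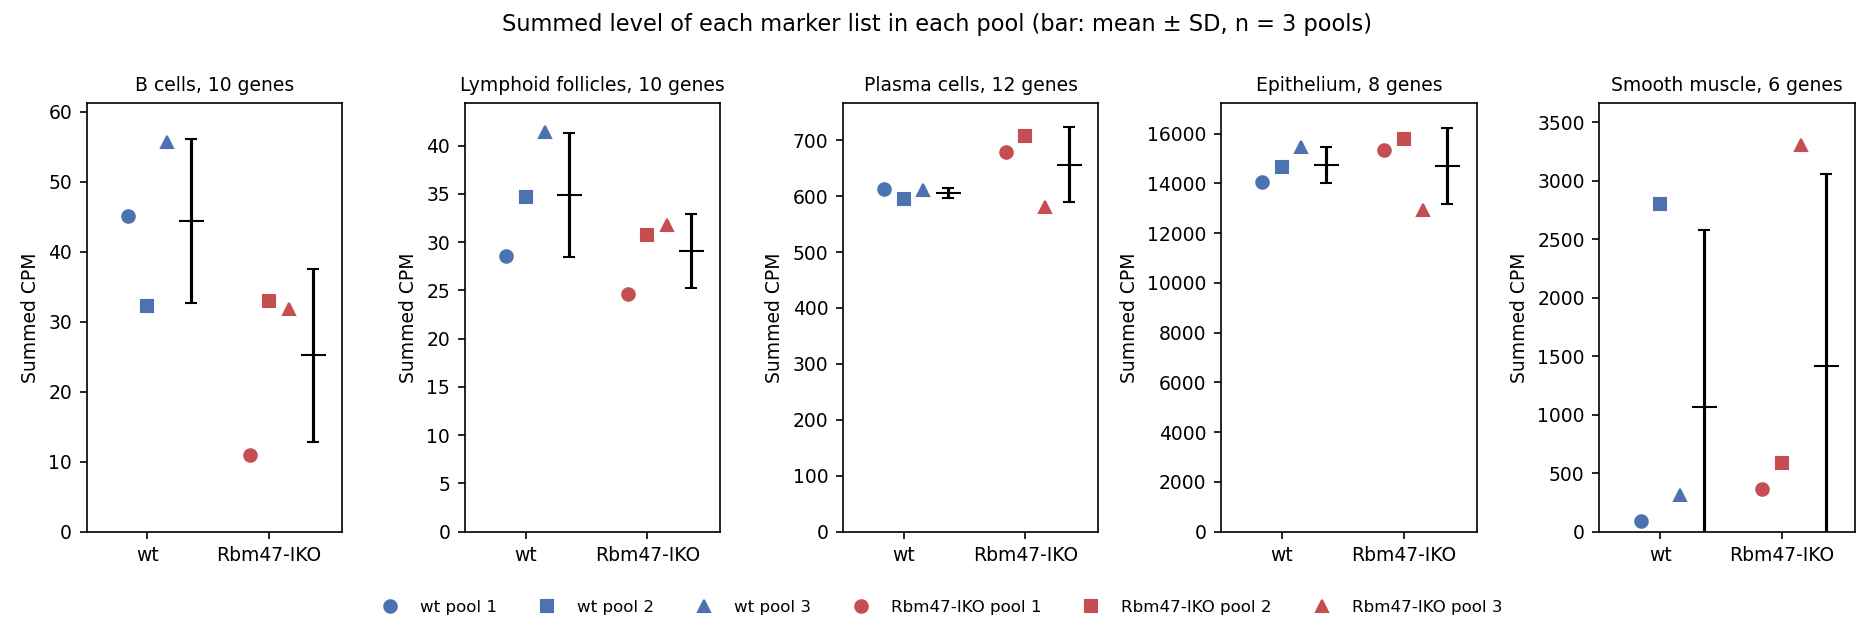
Summed CPM of 5 marker lists in each pool (y axis from 0, a separate scale for each panel; error bars that would pass below 0 end at the axis), with mean ± SD of 3 pools in black. The B cell sum is lowest in Rbm47-IKO pool 1 at 10.95 CPM, the epithelial sum overlaps between genotypes, and the muscle sum is highest in Rbm47-IKO pool 3 and wt pool 2, at 3302 and 2803 CPM.

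Genes of IgA class switching and of plasma cell homing to the gut gave 0 calls among the 17 tested of 22 listed, with 6 estimates above 0 and 11 below (median -0.34). Ccl25, the chemokine by which small intestinal epithelium draws in plasma cells, was at 306.9 ± 17.14 CPM against 353.5 ± 36.47 CPM (edgeR adjusted p = 0.453). Aldh1a1, an enzyme that makes retinoic acid, was at 281.2 ± 35.63 CPM against 134.4 ± 71.72 CPM. It was higher in every pool labelled Rbm47-IKO but short of the threshold (log2 fold change 1.07 ± 0.33, SE, edgeR adjusted p = 0.154). Aldh1a2, of the same gene family and list, was at 2.99 ± 1.89 CPM against 2.51 ± 2.60 CPM. Its pools overlapped (log2 fold change 0.25, edgeR adjusted p = 0.929). Tgfbr1, a receptor for the cytokine that directs the switch to IgA, was at 26.81 ± 3.96 CPM against 39.23 ± 4.71 CPM (SD, n = 3 each), a log2 fold change of -0.55 ± 0.14 (SE, edgeR adjusted p = 0.0975). Ccl25 and Tgfbr1 were lower in every pool labelled Rbm47-IKO than in any wt pool and Aldh1a1 was higher, patterns of 11.6% and 11.7% of tested genes.

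T cell genes, read as another lymphocyte of the mucosa, had 0 calls of 8 (2 estimates above 0, 6 below, median -0.27) and summed to 50.14, 49.58 and 43.31 CPM against 62.44, 43.29 and 45.91 CPM. Cd8a was at 22.78 ± 3.05 CPM against 22.71 ± 6.47 CPM, Cd3g at 10.36 ± 1.92 CPM against 11.27 ± 1.73 CPM and Cd3e at 6.13 ± 0.42 CPM against 5.52 ± 0.80 CPM (SD, n = 3 each). The pools of 2 of the 8 genes, Cd4 and Cd5, did not overlap and were lower in those labelled Rbm47-IKO (edgeR adjusted p = 0.441 and 0.268), a pattern of 11.6% of tested genes.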

How the data were processed

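Poly(A)-selected RNA of 6 mucosal pools, 3 labelled Rbm47-IKO and 3 wt, was analysed, grouped by the genotype label. The authors deposited 1 table per pool of read counts for 38561 Ensembl genes. The deposited CPM column scales each count to its column's total, and the deposited RPKM column divides this by gene length in kilobases. Recalculation from the counts gave the same values within rounding, and neither column was used further. The submitters' processing notes name STAR 2.5.1a, featureCounts 1.4.6-p5 and GRCm38 without roles, and use of strand is not given in the sources used here. Symbols were found for 36639 genes.

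Counts were tested with the quasi-likelihood test of edgeR 4.0.16 (R 4.3.3, filterByExpr, TMM, no covariate) over all pools, with Benjamini-Hochberg adjustment over all 16425 genes tested and a threshold of 0.05. The test was also run on simulated counts with the same dispersion for every gene. That setting lacks the differences in muscle RNA and sex between these pools, so it cannot show their effect. Ratios and shares were compared by two-sided exact permutation tests in Python 3.11.15, which cannot fall below 0.1 with 3 pools against 3. Likeness used log2(CPM + 0.5). Depth was 31560320 to 38951830 counts per pool.

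The named genes were the members, Rbm47, other constant genes, the called and the 3 most abundant genes of each marker list (the muscle list is given as sums), and the 5 genes most like Igha and Pigr, of which 1 is not reported here. Cldn7, Ell2, Pou2af1, Myd88, Tnfrsf1a, Rela, Cxcl13, Cd79a, Bank1, Fcrla, Cd4 and Cd5 fall outside this rule and were named after their values were seen, because their pools did not overlap. Aldh1a2 and the rest of the plasma cell list also fall outside the rule. They were named after their values were seen, for comparison with Aldh1a1 and Ell2. Ighd had no row, and the lambda share rests on Iglc2. The members and lists were chosen with earlier results of these data known. Alternatives were DESeq2 1.42.0, limma-voom (limma 3.58.1), other normalizations, filters, a replicate block and leaving out each pool. Added once the values were known were Pigr per epithelial genes, a Y-linked covariate and the removal of the most muscle-rich pool of each group.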

Additional observations from a re-analysis of the deposited data

How the results depend on the processing

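Over 12 other settings, all members kept estimates below 0, and the log2 fold change of Pigr, which lay between -1.85 and -1.79, passed in 10 of these settings. Without the muscle-rich pools Igha was at -0.82, Jchain at -0.70 and Ighg1 at -1.85, and Ighg1 was at -0.71 with the Y-linked covariate. Pigr did not pass with the pool number as a replicate block (-1.82, edgeR adjusted p = 0.0530) or with the Y-linked covariate (-1.80, edgeR adjusted p = 0.0690). Ighg2b passed with DESeq2 (-2.46, adjusted p = 0.0165) and without a filter on low counts (-2.45, adjusted p = 0.0366), and Igkc with DESeq2 (-0.90, adjusted p = 0.0108). Thus 3 members passed with DESeq2, 2 without the filter, 0 with the block and 0 with the Y-linked covariate. The cause was not tested. Over all genes, 1131 passed with DESeq2, 473 without the filter, 100 with the block and 59 with the Y-linked covariate, against 443. The pool numbers did not pair the pools: deviations of same-numbered pools correlated at 0.42, -0.04 and -0.32, and pools did not each correlate best with their own number. The block changed no other member's call.

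With 1 pool left out, between 0 and 2 members passed, and log2 fold changes ranged from -0.67 to -0.22 for Igha, -0.63 to -0.22 for Jchain, -0.88 to -0.28 for Ighm, -1.63 to -0.06 for Ighg1, -2.90 to -2.12 for Ighg2b, -2.07 to -1.05 for Ighg3, -1.06 to -0.62 for Igkc and -1.94 to -1.65 for Pigr. The difference in the Ighg1 share ranged from -0.15 to 0.0427 percentage points, the positive value without wt pool 1. That in the Iglc2 share ranged from -1.41 to 0.0682, positive without wt pool 3, and that in the log2 ratio of Jchain to Igha from -0.0221 to 0.105, negative without wt pool 1. Depth limits Ighg3, Ighg1 and Ighe, with as few as 8, 24 and 0 counts in a pool.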
